A study of Mus musculus with 6 samples.

Results

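The expression of 9 marker genes of the two-cell-like state, Tmem92, Sp110, Arg2, Zfp750, Spz1, Rfpl4b, Ubtfl1, Ddit4l and AF067061, was followed in embryonic stem (ES) cells of the mouse and in FLICs, which the labels describe as ES cells that were differentiated. The genes are those of a list of such markers that lie outside the multicopy families and have a value in all 6 count columns, and they are 9 of the 22600 genes of the table. RNA-seq libraries were made from ES cells with OHT (n = 2), FLICs with OHT (n = 1), untreated ES cells (n = 2) and untreated FLICs (n = 1). All cells had a C57BL/6 background and spent 96 h in culture. OHT, which is hydroxytamoxifen, a metabolite of tamoxifen, was given for 3 days. The OHT groups are labelled TRF2-/- and the untreated groups wild-type. Terf2 is the gene of TRF2, which binds telomeres. No group had OHT while keeping TRF2, so OHT and TRF2 loss cannot be told apart. The labels say neither how Terf2 is removed nor whether libraries of 1 group are separate cultures or clones. The p-values here thus measure only how far these libraries spread.

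Soon after fertilisation the mouse embryo reaches the two-cell stage, at which its own genome is first switched on. In ES cell cultures, rare cells pass for a short time through a state that resembles that stage. The transcription factor Dux is known to start the state, and the Zscan4 genes, whose products act in telomere maintenance in ES cells, are its most used markers. The state also switches on genes with other known roles or with none. Among them are Tmem92, a predicted membrane protein, Arg2, the mitochondrial arginase, and Sp110, a nuclear body protein of the Sp100 family. RNA was taken from whole cultures, so more cells in that state and more RNA per such cell cannot be told apart.

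The labels were checked on marker genes. Terf2 had 9 and 10 counts in ES cells with OHT, against 554 and 732 in untreated ES cells, and 5 counts in FLICs with OHT, against 268 in untreated FLICs. All 17 naive pluripotency markers were above 1 CPM (reads scaled to the size of the library) in each ES cell library. In FLICs these 17 markers summed to 146 CPM with OHT and 204 CPM untreated, and 18 fibroblast markers to 25646 and 19854 CPM. In ES cells the fibroblast markers summed to 2102 and 1417 CPM with OHT and to 2308 and 2286 CPM untreated, most of it from Fn1. Thy1 and Pdgfra, on the fibroblast list, went the other way. Their log2 fold changes in untreated FLICs against untreated ES cells were -3.02 and -2.15. The ES cell libraries with OHT differed from each other by more than the untreated ones did. At least 2-fold on log2(CPM + 1), 470 of 12698 genes separated them, against 0 of 12149 genes between the untreated libraries.

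In ES cells with OHT, 7 of the 9 genes were higher in both libraries than in either untreated library, a pattern that 25.2% of the genes tested showed. For 0 of the 9 both OHT libraries were lower, as for 27.6% of the genes tested. Of the 8 genes that could be tested, 1 was called higher by the edgeR quasi-likelihood test at an adjusted p under 0.05, and 0 lower. Over the 15535 genes tested, 0.521% were called higher and 0.0129% lower. The gene called was AF067061. Tmem92, Sp110, Arg2, Spz1 and Ubtfl1 had unadjusted p-values under 0.05, which 10.5% of all genes had with a higher value, but did not pass the adjustment. No gene, 0 of 8, had such a p-value with a lower value, against 7.79% of all genes. AF067061 and these 5 genes also had fitted changes of at least 4-fold, Spz1 by its bound as well, which 4.66% of all genes had. DESeq2 called 3 of the genes higher (Arg2, Spz1 and AF067061) and 0 lower, beside 1.95% and 0.588% of all genes. Of the 8, 3 genes (Tmem92, Sp110 and Spz1) passed the count filter only through the ES cell libraries with OHT, where they were high, so a higher value of these 3 was in part set by the filter. The counts above and the median log2 fold change of the 8 genes, 3.39, also with Spz1 at its bound, are therefore descriptions only. Over all genes tested the median was -0.01. Zfp750 and Ddit4l differed from the rest in that their OHT libraries lay on either side of the untreated ones.

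**Figure D1:**
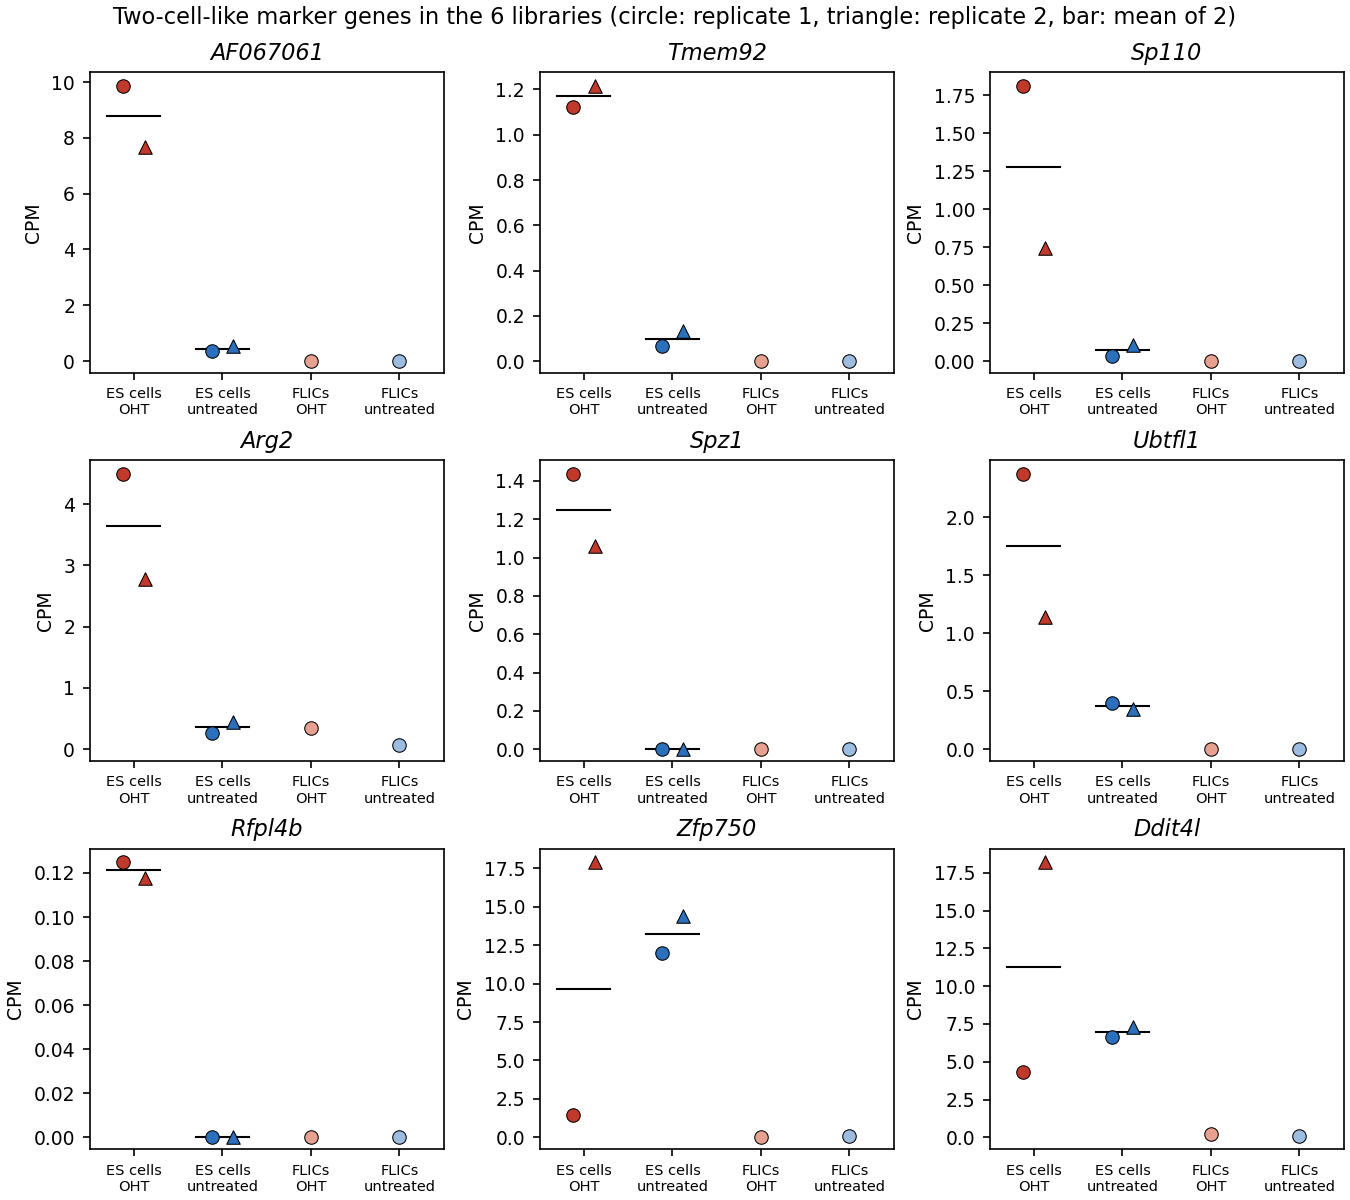
CPM of each of the 9 genes (vertical axis, own scale for each gene) in ES cells with OHT, untreated ES cells, FLICs with OHT and untreated FLICs. Circles are replicate 1, triangles replicate 2 and bars the mean of 2 libraries. In 7 panels both OHT points of ES cells lie above both untreated points, while for Zfp750 and Ddit4l they lie on both sides of them.

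AF067061 (ENSMUSG00000095071, GRCm38 chr13:120263114-120264517, plus strand) is a protein-coding gene with no gene on the same or the opposite strand over it. It had 9.86 and 7.68 CPM in ES cells with OHT (316 and 196 counts), against 0.364 and 0.532 CPM in untreated ES cells (11 and 20 counts). Both OHT libraries were far above both untreated ones. The means were 8.77 ± 1.54 CPM with OHT and 0.448 ± 0.119 CPM untreated (SD, n = 2 each), a log2 fold change of 4.27 (SE 0.33, adjusted p = 0.0135 by edgeR). The fold change ran from 4.03 to 4.58 when each ES cell library was left out in turn, and the call was lost without untreated replicate 1 (adjusted p = 0.0661).

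AF067061 is not a single gene by sequence. Its protein-coding transcripts matched those of 6 other genes at 90% identity or more over at least 300 bases. The closest were Gm21761, at 96.7% identity, and Gm20767, at 95%. Tcstv1 and Tcstv3, which name a known two-cell family, were 91.9% and 91.8% identical to it. The data thus go against the description of AF067061 as lying outside the multicopy families. It is not stated how reads shared by such copies were divided, so the value of any 1 copy is uncertain. Of the 6 relatives, 3 were called higher with OHT in ES cells, Gm21761 (log2 fold change 4.57, adjusted p = 0.00757 by edgeR), Gm20767 (4.42, adjusted p = 0.0181) and Tcstv3 (5.19, adjusted p = 0.0194). Summed with its 6 relatives, AF067061 reached 36.9 and 30.1 CPM in ES cells with OHT, against 1.42 and 1.41 CPM in untreated ES cells. The sums averaged 33.5 ± 4.81 CPM and 1.42 ± 0.0071 CPM (SD, n = 2 each), a ratio of 23.7.

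Sp110 (ENSMUSG00000070034, chr1:85576899-85598817, minus strand), the nuclear body gene, had 1.81 and 0.745 CPM in ES cells with OHT, against 0.0331 and 0.106 CPM in untreated ES cells. These levels rest on 58 and 19 counts with OHT and on 1 and 4 counts untreated. The groups did not overlap, and the OHT libraries differed from each other by 2.43-fold (95% exact counting interval 1.43 to 4.32). The log2 fold change was 4.08 (SE 0.78, adjusted p = 0.105 by edgeR). Its relatives in nuclear bodies are Sp140, which lies 1561 bases from the span of Sp110 given here, and Sp100. Sp140 had 1.19 and 0.667 CPM with OHT and 0.497 and 0.692 CPM untreated, so its groups overlapped. Sp100 had at most 4 counts in any ES cell library. Gm15753 and Gm16026, which match Sp110 at 96.4% and 97.4% identity, have no row in the table used here.

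The promoters of AF067061 and Sp110 are shown because they share the longest run of letters found between any 2 of the 9 genes. RefSeq promoter windows (GRCm38.p6, 250 bases before to 50 after the annotated start) matched 6 of the 9 genes, with 2 start sites for Sp110. The run has 13 letters, ACACACCTTTAAT. It occurs 3 times in the window of the upstream start of Sp110 (chr1:85603842-85604141, minus strand), from 173, 120 and 67 bases before the start, and 1 time in that of AF067061 (chr13:120262845-120263144, plus strand), from 97 bases before it. The upstream start of Sp110 lies outside the span given for the gene above, which is that of GENCODE. The distance to Sp140 given above holds for that span and not for this start. Both windows also hold TATAAG, a form of the TATA box, closer to the start. Capitals mark the run and TATAAG.
AF067061: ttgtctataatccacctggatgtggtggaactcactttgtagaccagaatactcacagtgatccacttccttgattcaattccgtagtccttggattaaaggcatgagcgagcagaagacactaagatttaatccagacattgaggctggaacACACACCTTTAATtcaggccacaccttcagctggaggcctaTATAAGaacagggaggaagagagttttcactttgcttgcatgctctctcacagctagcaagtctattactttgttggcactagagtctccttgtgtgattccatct
Sp110 upstream start: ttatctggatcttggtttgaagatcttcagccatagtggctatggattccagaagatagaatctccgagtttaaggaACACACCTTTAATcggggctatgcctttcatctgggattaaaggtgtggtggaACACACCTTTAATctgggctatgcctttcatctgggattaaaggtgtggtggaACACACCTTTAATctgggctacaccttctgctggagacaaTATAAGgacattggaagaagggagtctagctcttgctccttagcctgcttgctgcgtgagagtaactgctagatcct

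The run, searched on both strands, was in 43 of 32851 promoter windows (0.131%), of 42 genes. It was looked for because these 2 genes share it, so its presence in them is no result. Of the other genes that hold it, 18 were tested, and 6 were called higher with OHT in ES cells and 0 lower, beside 0.521% and 0.0129% of all genes. In 17 of the 18 both OHT libraries lay above both untreated ones, beside 25.2% of all genes, and in Zbed3 both lay below. Of the 18, 9 passed the count filter only through the OHT libraries, so their direction was in part set by it. The 6 genes called are the models Gm20765, Gm21293, Gm21304, Gm21312, Gm4340 and Gm8764, which had nearly equal levels and may be copies of each other, so they cannot be counted as independent. They summed to 206 and 146 CPM in ES cells with OHT, against 10.8 and 12 CPM in untreated ES cells, and to 2.81 CPM in FLICs with OHT and 2.63 CPM in untreated FLICs. The other 12 genes summed to 32.7 and 23.6 CPM in ES cells with OHT, against 22.8 and 21.8 CPM in untreated ES cells, most of it from Zbed3, Pemt and Gm16381.

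**Figure D2:**
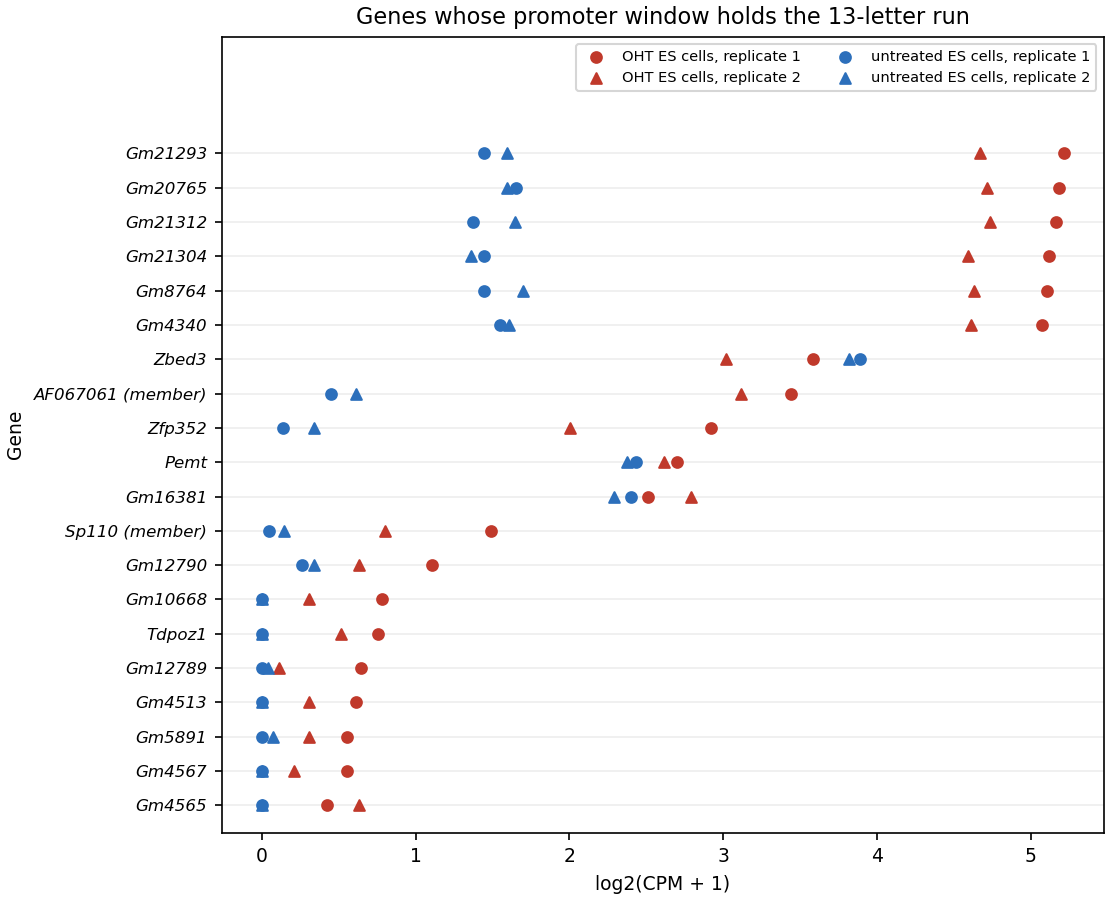
Level as log2(CPM + 1) (horizontal axis) of the 20 tested genes whose promoter window holds the 13-letter run, AF067061 and Sp110 among them, in the OHT (red) and untreated (blue) ES cell libraries, with circles for replicate 1 and triangles for replicate 2. In each row but that of Zbed3 both red points lie to the right of both blue ones, by little for Pemt and Gm16381.

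Zfp352 and Tdpoz1 are the named two-cell genes among them. Zfp352, a zinc finger gene of the two-cell embryo, holds the run 3 times. It had 6.58 and 3.02 CPM in ES cells with OHT, against 0.0993 and 0.266 CPM in untreated ES cells (log2 fold change 4.65, SE 0.63, adjusted p = 0.0529 by edgeR). Tdpoz1, of a multicopy family, had 22 and 11 counts with OHT and 0 counts in both untreated libraries. Their sites are given with 8 bases on each side, on the strand of the gene, for comparison with the promoters of AF067061 and Sp110 printed above. The 3 sites of Zfp352 are at chr4:90218638-90218666, chr4:90218721-90218749 and chr4:90218742-90218770 (plus strand), and that of Tdpoz1 is at chr3:93676390-93676418 (minus strand).
Zfp352, site 1: ccaggacaACACACCTTTAATccaggaca
Zfp352, site 2: ccaggacaACACACCTTTAATcctggaca
Zfp352, site 3: cctggacaACACACCTTTAATcctggaca
Tdpoz1: aggaaaacACACACCTTTAATccagcttt

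TATAAG itself was in 7.43% of all promoter windows, searched on both strands. It lay at a similar distance before the start in Sp110 and Rfpl4b, from 27 and 28 bases, and farther out in AF067061, from 56 bases. Ubtfl1 holds it only on the opposite strand, 208 bases out. TATAAA, in 13.6% of all windows, was found in that of Ddit4l alone among the 7.

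**Figure D3:**
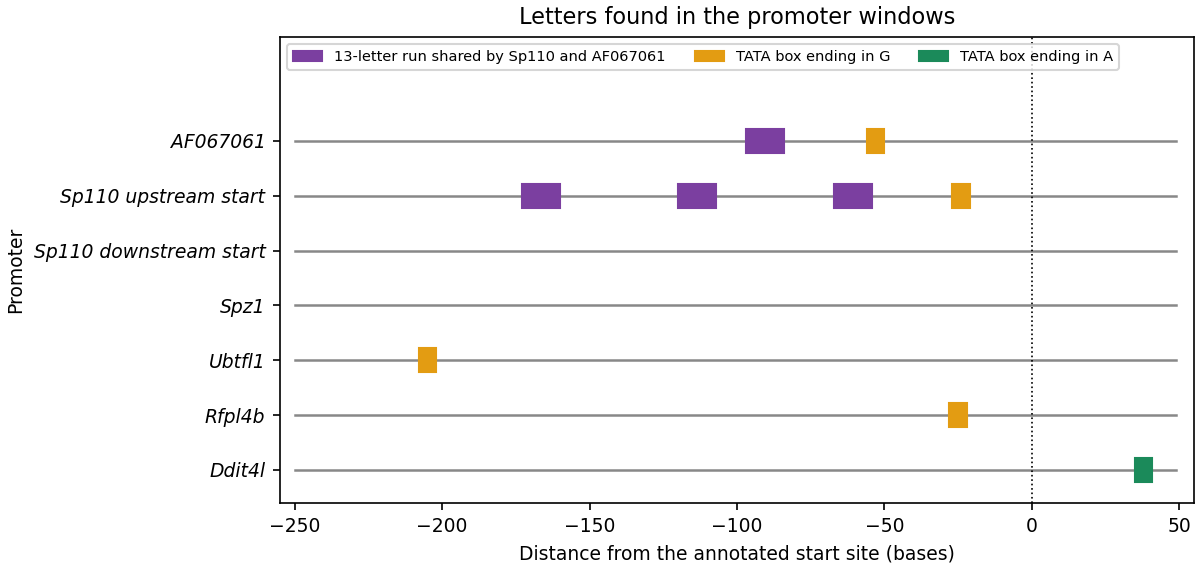
Position of the 13-letter run (purple) and of TATAAG (orange) and TATAAA (green) in the 7 promoter windows of 6 genes, by distance in bases from the annotated start. Sp110 holds the run 3 times at its upstream start and AF067061 holds it 1 time, and in these windows and that of Rfpl4b TATAAG lies nearer to the start.

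Tmem92 (ENSMUSG00000075610, chr11:94777217-94782703, minus strand) is a widely used marker of the state. It had 1.12 and 1.22 CPM in ES cells with OHT (36 and 31 counts), against 0.0662 and 0.133 CPM in untreated ES cells (2 and 5 counts). The 2 OHT libraries were nearly equal and well above both untreated ones. The means were 1.17 ± 0.0651 CPM and 0.0996 ± 0.0473 CPM (SD, n = 2 each), with a log2 fold change of 3.47 (SE 0.56, adjusted p = 0.0724 by edgeR). From counting error alone the ratio of 11.3 has a 95% exact interval of 5.18 to 29.1. A430060F13Rik and Gm11543, which match Tmem92 at 90.9% and 92.4% identity, have no row in the table used here. Tmem92 lies 153521 bases from Col1a1, which had 41 and 46 counts with OHT and 30 and 47 counts untreated.

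Arg2 (ENSMUSG00000021125, chr12:79130777-79156301, plus strand) turns arginine into ornithine and urea in mitochondria. It had 4.49 and 2.78 CPM in ES cells with OHT (144 and 71 counts), against 0.265 and 0.452 CPM in untreated ES cells (8 and 17 counts). The groups were clearly apart, with OHT replicate 1 the highest. The log2 fold change of 3.31 (SE 0.45) came just short of the threshold, at an edgeR adjusted p of 0.0529. It passed with relative log expression scaling (adjusted p = 0.0490) and with DESeq2 (adjusted p = 0.00104). With each ES cell library left out in turn it ran from 2.91 to 3.76, and with either untreated replicate left out it did not pass. Arg1, the cytosolic arginase, had 6 and 5 counts with OHT and 0 in both untreated libraries. Of 18 other genes of arginine and polyamine metabolism tested, 0 were called in either direction in ES cells and their median log2 fold change was -0.07, against -0.01 over all genes. Vti1b overlaps Arg2 on the other strand and had 68.3 and 80.1 CPM with OHT and 72.0 and 68.5 CPM untreated. Whether counting used the strand is not stated.

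Spz1 (ENSMUSG00000046957, chr13:92574636-92576172, minus strand) encodes a helix-loop-helix factor known from the testis. It had 46 and 27 counts in ES cells with OHT, or 1.44 and 1.06 CPM, against 0 counts in both untreated ES cell libraries. Against the 3 counts over the group that a count of 0 allows, Spz1 was at least 28.7-fold higher with OHT, and the edgeR adjusted p was 0.0584. DESeq2 called Spz1 (adjusted p = 0.0111), while edgeR did not with either untreated replicate left out. Of 12 other testis and meiosis genes tested, Stra8, a gene of meiotic entry, was called higher (log2 fold change 2.12, adjusted p = 0.0308) and 0 were called lower, with a median of 0.61. The 16 genes of that list summed to 338 and 345 CPM with OHT, against 222 and 252 CPM untreated. In 8 of the 12 both OHT libraries lay above both untreated ones and in 1, Rec8, below, beside 25.2% and 27.6% of all genes. Of the late sperm genes, Prm2, Tnp1 and Spata16 had 0 counts in each ES cell library, while Prm1 had 1 and 0 counts with OHT and 1 and 3 untreated, and Acrv1 had 11 and 1 with OHT and 3 and 7 untreated.

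Ubtfl1 (ENSMUSG00000074502, chr9:18404418-18413177, plus strand) is an HMG box gene of the early embryo, related in sequence to Ubtf, the RNA polymerase I factor. It had 2.37 and 1.14 CPM in ES cells with OHT (76 and 29 counts), against 0.397 and 0.346 CPM in untreated ES cells (12 and 13 counts). Both OHT libraries were above both untreated ones, and they differed from each other by 2.09-fold (95% exact counting interval 1.34 to 3.32). The log2 fold change was 2.24 (SE 0.51, adjusted p = 0.138 by edgeR). Ubtf had 429 and 425 CPM with OHT and 588 and 569 CPM untreated, so it lay on the other side (log2 fold change -0.44, adjusted p = 0.193). Rfpl4b (ENSMUSG00000094311, chr10:38820541-38821779, minus strand), a gene of the ret finger protein-like family, had 4 and 3 counts in ES cells with OHT and 0 counts in both untreated ES cell libraries. Against 3 counts over the untreated group that is 2.75-fold higher, and the 95% exact counting interval of the ratio starts at 1.70. With 7 counts in all, Rfpl4b did not pass the count filter and was not tested. Rfpl4, its oocyte relative, had 6 and 2 counts with OHT and 0 counts untreated.

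The promoter of Rfpl4b (chr10:38821730-38822029, minus strand) is shown beside those of AF067061 and Sp110 for its TATAAG, in capitals. That of Ddit4l (chr3:137623422-137623721, plus strand) is shown as the contrast in base composition, with its TATAAA in capitals, which lies after the annotated start. Ddit4l has 65.7% G and C and 14 CpG pairs in this window, and Rfpl4b 44.7% and 2 pairs. AF067061, the upstream start of Sp110 and Ubtfl1 had 44%, 45.3% and 46.0%, with at most 3 CpG pairs. Spz1 had 52.3% and 0 pairs, and the downstream start of Sp110 had 55% and 5 pairs. The median over all windows was 52.7% and 7 pairs. Of the 6 genes with a window, Ddit4l had the highest share of G and C, which is a description without a test.
Rfpl4b: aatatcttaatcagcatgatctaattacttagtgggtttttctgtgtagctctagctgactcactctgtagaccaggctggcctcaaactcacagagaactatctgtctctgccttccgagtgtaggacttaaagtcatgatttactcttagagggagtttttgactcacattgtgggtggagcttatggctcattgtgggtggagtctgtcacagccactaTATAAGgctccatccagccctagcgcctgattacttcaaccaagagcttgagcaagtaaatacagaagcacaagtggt
Ddit4l: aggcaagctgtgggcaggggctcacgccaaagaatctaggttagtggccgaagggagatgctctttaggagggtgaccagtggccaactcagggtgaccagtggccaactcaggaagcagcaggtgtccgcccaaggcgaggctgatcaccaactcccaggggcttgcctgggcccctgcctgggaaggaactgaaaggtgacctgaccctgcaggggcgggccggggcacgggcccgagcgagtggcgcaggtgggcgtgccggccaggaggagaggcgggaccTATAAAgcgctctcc

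Zfp750 and Ddit4l were expressed in untreated ES cells and were split by the OHT libraries. Zfp750 (ENSMUSG00000039238, chr11:121510978-121519333, minus strand), a zinc finger factor of epidermal differentiation, had 1.47 and 17.9 CPM in ES cells with OHT (47 and 456 counts), against 12.02 and 14.4 CPM in untreated ES cells (363 and 540 counts). OHT replicate 1 was far below the untreated libraries and OHT replicate 2 above them. Replicate 2 held 12.2-fold more Zfp750 than replicate 1 (95% exact counting interval 9.02 to 16.8). The log2 fold change over both was -0.46 (SE 0.94, adjusted p = 0.827 by edgeR). With OHT replicate 2 left out it was -3.13, and with OHT replicate 1 left out 0.44. In these fits the lone OHT library is assumed to vary like the untreated pair, so their p-values are not given.

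Ddit4l (ENSMUSG00000046818, chr3:137621612-137628333, plus strand), an inhibitor of the growth kinase complex mTORC1, had 4.34 and 18.2 CPM in ES cells with OHT (139 and 464 counts), against 6.62 and 7.29 CPM in untreated ES cells (200 and 274 counts). Again OHT replicate 1 was the lowest of the ES cell libraries and replicate 2 the highest, 4.19-fold apart (95% exact counting interval 3.46 to 5.11). The log2 fold change was 0.69 (SE 0.62, adjusted p = 0.575 by edgeR). With OHT replicate 2 left out it was -0.65, and with OHT replicate 1 left out 1.39, each from a lone OHT library. The direction for Zfp750 and Ddit4l therefore depends on which OHT library is used. Ddit4, the relative of Ddit4l, had 5.87 and 17.4 CPM with OHT and 11.2 and 11.8 CPM untreated, so its OHT libraries lay on both sides as well. Of 15 other mTORC1 inhibitor and energy stress genes tested, Txnip was called higher with OHT (log2 fold change 1.44, adjusted p = 0.0288), 0 were called lower and the median was -0.08.

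Trp53, which encodes the stress-responsive factor p53, and Mdm2, Ccng1 and Cdkn1a were set beside this pair after their values were seen. Trp53 had 8.39 and 83.1 CPM in ES cells with OHT, against 299 and 345 CPM in untreated ES cells, so both OHT libraries were below both untreated ones and Trp53 was not split. Mdm2, a p53 target and inhibitor, had 79.8 and 356 CPM with OHT and 182 and 202 CPM untreated. Ccng1, also a p53 target, had 45.2 and 295 CPM with OHT and 276 and 302 CPM untreated. Its OHT replicate 2 lay between the untreated libraries. Cdkn1a, another p53 target, had 19.1 and 32.9 CPM with OHT and 37.4 and 37.3 CPM untreated, so both OHT libraries were lower. Among these targets only Mdm2 was split like Zfp750 and Ddit4l. For Trp53, Mdm2, Ccng1 and Cdkn1a, as for Zfp750 and Ddit4l, OHT replicate 1 was the lower of the OHT libraries. In FLICs Trp53 had 7.82 CPM with OHT and 8.98 CPM untreated. In ES cells, where all 9 genes were compared, Trp53 was thus lower in both OHT libraries but was not called. Its log2 fold change there was -2.82 (SE 0.94, adjusted p = 0.214 by edgeR). Mdm2, Ccng1 and Cdkn1a were not called there either (adjusted p = 0.905, 0.618 and 0.352). Between untreated FLICs and untreated ES cells Trp53 was called lower (log2 fold change -5.16, adjusted p = 0.0267). The part of Trp53 in the values of the 9 genes was not tested. The epidermal markers, listed because Zfp750 is known from skin, had 0 of 10 called in ES cells, and all 14 summed to 177 and 214 CPM with OHT and 181 and 158 CPM untreated. In 6 of the 10 both OHT libraries lay above both untreated ones and in 0 below, beside 25.2% and 27.6% of all genes. Krt5 and Krt14, keratins of basal skin cells, were at or under 0.392 CPM in each ES cell library, and Ivl had 0 counts. Most of the sum came from Sfn, with 130 and 129 CPM with OHT and 136 and 110 CPM untreated. Perp, on the same list, had 3.74 and 40.0 CPM with OHT and 6.16 and 8.57 CPM untreated. Its OHT libraries lay on both sides of the untreated ones, as those of Zfp750 did. Tbcd, which overlaps Zfp750 on the other strand, had 65.1 and 76.3 CPM with OHT and 92.4 and 105 CPM untreated.

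**Figure D4:**
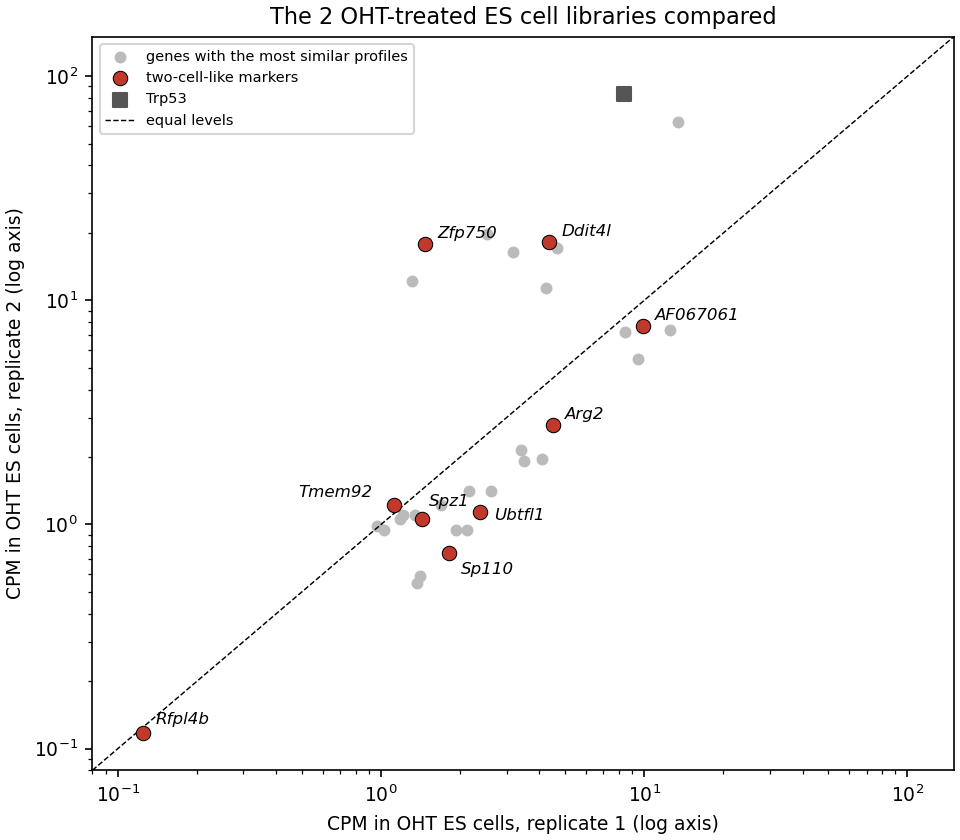
CPM in OHT replicate 1 (horizontal log axis) against OHT replicate 2 (vertical log axis) of ES cells for the 9 genes (red), the genes of most similar profile (grey) and Trp53 (square), with a dashed line at equal levels. Zfp750 and Ddit4l lie far above the line with Trp53, and AF067061, Arg2, Ubtfl1, Sp110, Spz1 and Rfpl4b lie below it.

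The 9 genes differed among themselves in which OHT library was the higher. Replicate 1 was higher beyond counting error (95% exact interval) in 4 genes, Sp110, Arg2, Ubtfl1 and AF067061, and replicate 2 in 2 genes, Zfp750 and Ddit4l. For the other 3, Tmem92, Spz1 and Rfpl4b, the interval of the ratio included 1. The Zscan4 genes, as the most used markers of the state, summed to 337 and 270 CPM in ES cells with OHT, against 17.2 and 18.2 CPM in untreated ES cells. Zscan4 was thus also the higher in OHT replicate 1.

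**Figure D5:**
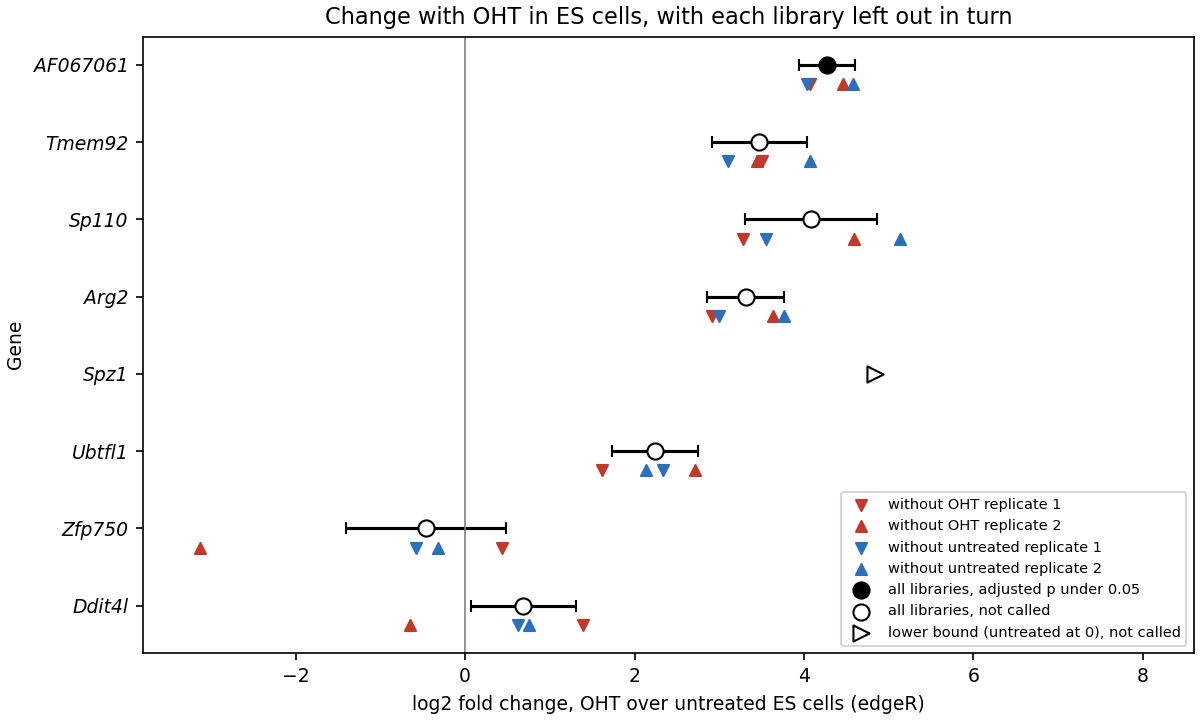
Log2 fold change of OHT over untreated ES cells (horizontal axis) for the 8 genes tested, with all libraries (circles, bars are 1 SE) and with each ES cell library left out in turn (triangles). AF067061, in black, is the gene called, and Zfp750 and Ddit4l cross 0 depending on the OHT library left out. Spz1, at 0 in untreated ES cells, is drawn at its lower bound of 4.84.

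Levels were compared between genes as CPM per kilobase of the deposited length, which for each of the 9 genes is a multiple of 3, as coding lengths are. In ES cells with OHT the order was Ddit4l at 19.5, AF067061 at 17.1, Zfp750 at 4.59, Arg2 at 3.43, Tmem92 at 2.41, Ubtfl1 at 1.48, Spz1 at 1.10, Sp110 at 0.957 and Rfpl4b at 0.152 CPM per kilobase. The place of Zfp750 is the mean of 2 libraries at 0.695 and 8.48 CPM per kilobase, which overlapped with those of 6 genes, all but AF067061 and Rfpl4b. The library values of Ddit4l and AF067061 also overlapped, as did those of Ubtfl1, Spz1 and Sp110 with each other. In untreated ES cells the order was Ddit4l at 12.01, Zfp750 at 6.26, AF067061 at 0.874, Arg2 at 0.338, Ubtfl1 at 0.314, Tmem92 at 0.205 and Sp110 at 0.0523 CPM per kilobase, with Spz1 and Rfpl4b at 0 counts. There Arg2 overlapped with Ubtfl1 and with Tmem92. Ddit4l and Zfp750 therefore stood well above the other 7 genes in untreated ES cells, and AF067061 stood beside Ddit4l with OHT.

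For each gene with a group mean of at least 1 CPM, the genes with the closest pattern were sought by the root mean square difference of centred log2(CPM + 1) values over the same 6 libraries. Closest to AF067061 was Usp17la, a two-cell deubiquitinase gene (difference 0.145), and then Tie1 (0.157). For Ubtfl1 they were Cphx2 (0.0902) and Duxf3 (0.0941), a Dux gene with 2.15 and 1.41 CPM in ES cells with OHT and 0.298 and 0.293 CPM in untreated ES cells. Closest to Tmem92 were Ninj2 (0.0557) and Klk7 (0.0631), to Sp110 Gm5286 (0.0573), to Spz1 H2-M10.4 (0.0343) and to Arg2 Gm6351 (0.106). The other pair had a different company. Zfp750 was closest to Eda2r (0.197), a receptor gene known as a p53 target. Eda2r had 1.31 and 12.23 CPM in ES cells with OHT and 9.43 and 12.0039 CPM in untreated ES cells. Its OHT libraries thus lay on both sides of the untreated ones, with replicate 2 above them by little. Ddit4l was closest to Cnga3 (0.135), with 3.18 and 16.5 CPM in ES cells with OHT and 4.63 and 5.67 CPM in untreated ES cells. Between members, Spz1 and Tmem92 were the nearest pair (0.120), and Zfp750 and AF067061 the farthest (1.92).

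Other genes of the two-cell programme give the setting for these values. Of 17 multicopy genes tested, 13 were called higher with OHT in ES cells and 0 lower, with a median log2 fold change of 4.19, or 4.16 with the 1 gene at 0 counts untreated set at its bound. Of 16 other single genes tested, 0 were called in either direction, with a median of 0.45. Zfp352 and Abcb5 came closest, each at an adjusted p of 0.0529 by edgeR, and then Tmem132c, with 13.8 and 8.78 CPM with OHT and 2.75 and 2.85 CPM untreated (log2 fold change 2.01, adjusted p = 0.0580). Dppa2 and Dppa4, known activators of Dux, had log2 fold changes of 0.23 and 0.28.

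Markers of the other cell types in which these genes are known were also counted. Sp110 and Arg2 are expressed in macrophages, and of 6 blood and macrophage genes tested 0 were called in ES cells. All 12 summed to 106 and 170 CPM with OHT and 129 and 138 CPM untreated, and the leukocyte gene Ptprc had at most 2 counts. Others were expressed in ES cells, Laptm5 at 72.9 and 104 CPM with OHT and 101 and 109 CPM untreated, Cd68 at 28.1 and 61.4 CPM with OHT and 24.8 and 25.6 CPM untreated, and Spi1 at 4.15 and 4.27 CPM with OHT and 2.75 and 2.82 CPM untreated. In 4 of the 6 tested both OHT libraries lay above both untreated ones, and in 1, Cd14, both lay below. Over all genes these shares were 25.2% and 27.6%. Of 8 oocyte genes tested, 0 were called, with a median of 1.64, and all 13 summed to 79.0 and 93.2 CPM with OHT and 75.8 and 79.9 CPM untreated. Of 19 nuclear body and interferon-stimulated genes tested, listed for Sp110, Gbp2 was called higher with OHT (log2 fold change 3.24, adjusted p = 0.0106 by edgeR) and 0 were called lower, with a median of 0.37. Of 17 fibroblast genes and 17 naive pluripotency genes tested, 0 of each were called, with medians of 0.52 and -0.32. The part of such cells in the values of the 9 genes was not tested.

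The protein-coding neighbours of the 9 genes were examined to see whether whole regions moved. Of 18 neighbours, 15 were tested and 0 were called in ES cells with OHT. BC147527, 35875 bases from AF067061, came closest to a call, with 131 and 50 counts with OHT and 4 and 8 counts untreated (log2 fold change 4.08, SE 0.57, adjusted p = 0.0557 by edgeR). Gm21731, 21747 bases from AF067061 on the other side, had 17 and 12 counts with OHT and 1 and 0 counts untreated (log2 fold change 4.76, adjusted p = 0.120). C130026I21Rik, as far as 306333 bases from Sp110, had 13 and 12 counts with OHT and 2 in each untreated library (log2 fold change 2.81, adjusted p = 0.149). Lama4, 143736 bases from Rfpl4b, had 221 and 113 counts with OHT and 55 and 48 counts untreated (log2 fold change 1.88, adjusted p = 0.0982). Naalad2, 1423 bases from Ubtfl1, had a log2 fold change of 1.57 (adjusted p = 0.127). For Arg2 and Spz1, the changes of the neighbours were between -0.13 and 0.09 on the log2 scale.

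In FLICs the 9 genes had few or no counts. With OHT and without it, 6 of them (Tmem92, Sp110, Spz1, Rfpl4b, Ubtfl1 and AF067061) had 0 counts. A count of 0 allows up to 0.0686 CPM in FLICs with OHT and 0.0926 CPM in untreated FLICs, from counting error alone. Arg2 had 15 counts in FLICs with OHT, or 0.343 CPM, against 2 counts, or 0.0617 CPM, in untreated FLICs. Zfp750 had 2 counts in either library, and Ddit4l had 10 counts with OHT and 4 untreated. With 1 library per condition there is no test of OHT in FLICs. All 9 genes had a mean under 1 CPM, so none could be judged by the rule of 2-fold on log2(CPM + 1) at a mean of at least 1 CPM, which 0.424% of 11789 genes met upward and 0.102% downward. The ratio of 5.56 for Arg2 has a 95% exact counting interval of 1.29 to 50.1 and compares those 2 libraries only.

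Set against ES cells, FLICs were lower in each gene that could be tested once OHT was given. All 8 were called lower by edgeR in FLICs with OHT against ES cells with OHT, where 29.3% of all genes were called lower and 28.4% higher. For Tmem92, Sp110 and Spz1, which passed the count filter only through ES cells with OHT, this direction was set by the filter. Their calls in this test are therefore no evidence. The calls that could have gone either way are those of Arg2, Zfp750, Ubtfl1, Ddit4l and AF067061. Against 3 counts in the FLICs library, AF067061 was at least 130-fold lower (adjusted p = 0.000202) and Ubtfl1 at least 26.6-fold (adjusted p = 0.00248). Arg2, still detected in FLICs, was lower by a log2 fold change of -3.40 (SE 0.59, adjusted p = 0.00459). These contrasts assume that the lone FLICs library varies like the ES cell pairs.

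Between untreated FLICs and untreated ES cells, 4 of the 8 genes were called lower and 0 higher, beside 28.7% and 26.2% of all genes. Spz1 had 0 counts in each untreated library, so it could not be called either way. Tmem92 and Sp110 had little to compare, with 7 and 5 counts over the untreated ES cell pair and 0 in untreated FLICs. Zfp750 and Ddit4l, the pair expressed in untreated ES cells, had log2 fold changes of -7.66 (SE 2.17, adjusted p = 0.0277 by edgeR) and -5.77 (SE 1.26, adjusted p = 0.0111). Since Zfp750 had 2 counts in untreated FLICs, against 903 in both untreated ES cell libraries together, its ratio of 0.00463 has a 95% exact counting interval of 0.00056 to 0.0168. On the same bound of 3 counts, AF067061 was 4.94-fold lower in untreated FLICs (adjusted p = 0.00441) and Ubtfl1 3.98-fold (adjusted p = 0.0179). The 95% exact counting intervals of their ratios reached up to 0.264 and 0.333. Arg2, with 2 counts in untreated FLICs, had a log2 fold change of -2.49 (SE 0.86, adjusted p = 0.0521) and was not called; its ratio was 0.167 (95% exact counting interval 0.0192 to 0.671). Arg1 went the other way, with 165 counts in untreated FLICs against 0 in both untreated ES cell libraries (adjusted p = 0.000356), so the 2 arginase genes lay on opposite sides of the cell types.

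Whether OHT acted differently in FLICs and in ES cells was tested as an interaction in the same fit. Of the 8 genes, 0 were called by edgeR, beside 0% of all genes. At an unadjusted p under 0.05 there were 0 of the 8 genes and 1057 of all genes, and DESeq2 called 0 of the 8 and 20 of all. For the 5 tested genes at 0 counts in both FLICs libraries this test has nothing to compare, and Rfpl4b was not tested. For Arg2 the difference of the log2 fold changes was -0.91 (SE 1.27, adjusted p = 0.918). A different response of the 9 genes in the 2 cell types was thus not shown.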

How the data were processed

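Per the labels' protocols, the RNeasy Mini Kit and the TruSeq Stranded Total RNA LT Kit were used. The deposited table gives raw, whole-number counts of reads for 22600 genes in 6 libraries, beside gene lengths. Per the submitters' processing notes, Salmon, DESeq2 and GRCm38 were used, with versions and roles not given. The strand setting is not given in the sources used here. Total counts ran from 23534551 to 43965309.

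The libraries were grouped by title and treatment. Genes were filtered by group (filterByExpr, 15535 kept), scaled by TMM and tested with the edgeR 4.0.16 quasi-likelihood test in R 4.3.3, over 4 groups and 6 libraries. Benjamini-Hochberg adjustment ran over all genes tested, and genes under 0.05 were called. There were 2 residual degrees of freedom. CPM use TMM-scaled library sizes. Alternatives were relative log expression scaling, DESeq2 1.42.0, other count filters, ES cell libraries only, a replicate block and leaving out each ES cell library. The procedure was tested on simulated data.

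Symbols were matched for 22509 genes. Positions are from GENCODE M21 (GRCm38), promoter letters from RefSeq (GRCm38.p6), and near copies from BLAST+ 2.17.0. Counting intervals are exact (95%), and intervals and floors (3 counts) cover counting error only. The 9 genes, the lists and the tests were chosen with earlier results of these data known. Beside the 9 genes, the text names up to 4 called genes of each list, up to 3 genes of closest pattern, protein-coding neighbours, Terf2 and sequence relatives. Trp53, Mdm2, Ccng1, Cdkn1a, Zfp352, Abcb5, Tmem132c, Dppa2, Dppa4 and the genes that share the promoter run were named after their values were seen. So were the marker genes given beside list sums.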

Additional observations from a re-analysis of the deposited data

How the results depend on the processing

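AF067061 was called in 9 of 10 alternatives for OHT in ES cells, with log2 fold changes of 4.03 to 4.58. The count of the 9 genes called there, 1 by the edgeR test, was 2 with relative log expression scaling (Arg2 added), 3 with DESeq2 (Arg2 and Spz1 added), 4 with no count filter and 4 with ES cell libraries only (Tmem92, Arg2 and Spz1 added in both). With an ES cell library left out, 1 group holds a single library, so the numbers of genes called in those fits are not given. The call of AF067061 was lost without untreated replicate 1. Over all genes the count, 83, was 371 with DESeq2, 262 with no count filter, 45 with a filter of 5 CPM in 2 libraries and 148 with ES cell libraries only, and 18 to 6165 with a library left out. By construction, the fits without an OHT library take their spread from the untreated pair alone. Without OHT replicate 1, Zfp750 had a log2 fold change of 0.44 and Ddit4l of 1.39. Without OHT replicate 2, the values were -3.13 for Zfp750 and -0.65 for Ddit4l. For the other moves the cause was not tested.

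With a replicate block in ES cells, 6 of the 9 genes (Tmem92, Sp110, Arg2, Spz1, Ubtfl1 and AF067061) and 898 of all genes were called, at adjusted p-values of 7.91e-05 to 0.0124 for the 6 by edgeR. Same-numbered libraries deviated together (Pearson r = 0.437 over genes). The titles share a name within each of the 2 pairs, but the labels do not say whether it marks a culture, a line or a day. Between FLICs and ES cells with OHT, 8 genes were called under each alternative but the 5 CPM filter, which left 3 genes to test and called 3. Untreated, the count of 4 ran from 3 to 6, and the interaction called 0 under each alternative run. The size rule in FLICs could judge none of the 9 genes, which were under its minimum or, with none, too low to reach 2-fold on log2(CPM + 1). The low counts of Rfpl4b, Sp110 and Tmem92 limit what these libraries can show.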
